A study of Mus musculus with 4 samples.

Results

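Macrophage cluster 10 is a small group of proliferating macrophages that the authors' deposited annotation separated from a larger proliferating group, Macrophage cluster 7. Its members are the 50 cells, of 9925 in the series, that carry that refined cluster name in the deposited cell table. Of these, 39 cells (78.0%) came from the APM library, 9 from the control library and 1 each from the HDM and HDM+APM libraries. The deposited annotation holds 17 clusters, of which 10 are macrophage clusters and 8 of those are not named as proliferating. Those 8 are called non-proliferating here. All 50 members bear the coarse label Alveolar Macrophage. The levels below are compared with the 572 cells of cluster 7 and with the 7334 cells of the 8 non-proliferating macrophage clusters.

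Lavage fluid of C57BL/6 mice supplied the cells, whose viability the labels put at 60 to 80%. APM mice inhaled an aerosol of Afghanistan particulate matter (5 mg/m3, 6 hours daily, 12 days) and later received intranasal saline (PBS). HDM mice breathed filtered air and received 10 µg house dust mite allergen, HDM+APM mice had both, and control mice had filtered air and saline. Allergen or saline was given on days 22 and 29 and again on days 36, 37 and 38, beginning 9 days after the last dust exposure, and harvest followed on day 39. Each group is 1 library pooled from 7 mice. No comparison below therefore has a replicate check, and no p-value is given. The annotation's clusters were made from the same transcripts that are described here, so every difference between clusters is a description and not a test. Intervals are 95% intervals that cover counting error only.

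Alveolar macrophages are long-lived phagocytes that clear inhaled particles and surfactant, and in the adult lung they largely maintain their numbers by dividing in place. A dividing cell licenses its replication origins and copies its DNA in S phase. It then builds mitotic cyclins, centromere proteins and spindle in G2 and M phase, and separates its chromosomes. Genes of the first programme are commonly driven by E2F factors. Those of the second are commonly controlled through a cell cycle homology region (CHR) and CCAAT boxes bound by NF-Y. Transcripts of both programmes can therefore place a cell within the cycle.

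The 3 genes used as markers of the cluster are Ccnb2, a B-type mitotic cyclin, Birc5, the survivin subunit of the chromosomal passenger complex, and Stmn1, the microtubule regulator stathmin. In mm10, by the GENCODE annotation, they lie on chr9:70407692-70421547 (minus strand), chr11:117849251-117855743 (plus strand) and chr4:134468320-134473843 (plus strand), and each is annotated as protein coding. The promoter set used here holds no entry for Stmn1. The promoters of the other markers, Ccnb2 and Birc5, from RefSeq on GRCm38.p6, are shown. Each runs from 250 bases before to 20 bases after the start, 5′ to 3′ on the gene's strand, over chr9:70421535-70421804 and chr11:117848987-117849256. Capitals mark the motifs found among TTTGAA and TTTAAA (CHR), CCAAT, and TTGGCGC and TTCCCGC (E2F), searched on both strands.
Ccnb2: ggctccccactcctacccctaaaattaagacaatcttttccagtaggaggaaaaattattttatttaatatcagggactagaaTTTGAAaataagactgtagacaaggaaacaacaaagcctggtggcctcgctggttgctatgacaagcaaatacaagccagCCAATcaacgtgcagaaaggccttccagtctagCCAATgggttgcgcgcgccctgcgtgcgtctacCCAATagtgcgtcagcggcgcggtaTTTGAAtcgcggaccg
Birc5: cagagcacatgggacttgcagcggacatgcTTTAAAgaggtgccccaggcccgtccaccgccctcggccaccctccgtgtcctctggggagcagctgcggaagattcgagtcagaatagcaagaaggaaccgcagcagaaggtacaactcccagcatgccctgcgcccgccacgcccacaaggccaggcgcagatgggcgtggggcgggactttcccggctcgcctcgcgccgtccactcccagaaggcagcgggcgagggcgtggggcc
The Ccnb2 promoter held 3 CCAAT copies that begin 87, 54 and 21 bases before the start, and 2 TTTGAA copies, of which 1 begins at base 5 after it. The Birc5 stretch held 1 TTTAAA and neither CCAAT nor an E2F motif. Over the whole 300-base windows, TTTGAA occurred in 45 of 71 genes of the mitotic lists with a promoter (63.4%), in 8 of 45 genes of the S phase lists (17.8%) and in 20.2% of all 27025 genes. E2F motifs occurred in 16 of 71 mitotic genes (22.5%), 26 of 45 S phase genes (57.8%) and 7.79% of all genes. CCAAT occurred in 70.4%, 57.8% and 41.1%, and TTTAAA in 18.3%, 11.1% and 14.9%. Among the 10276 genes of the count matrix with a promoter, the shares were 14.7% for TTTGAA, 13.7% for E2F motifs, 42.8% for CCAAT and 11.0% for TTTAAA. These matches are letters in a window and not measured binding sites.

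Cluster 10 took a larger share of the macrophages in the APM library than in the control library. It made up 1.05% of APM macrophages (0.748 to 1.43), 0.503% of HDM macrophages (0.0127 to 2.77), 0.641% of HDM+APM macrophages (0.0162 to 3.52) and 0.232% of control macrophages (0.106 to 0.439). The APM and control intervals do not overlap, while the HDM and HDM+APM values rest on 1 cell each. Cluster 7 made up 8.26% of APM macrophages (7.40 to 9.20) and 6.20% of control macrophages (5.46 to 7.01). Among proliferating macrophages, cluster 10 supplied 11.3% in the APM library (8.14 to 15.1) and 3.60% in the control library (1.66 to 6.72). With 1 library per group, these shares compare libraries, and differences between the pools cannot be told apart from the exposure.

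Depth is set out first, since it bears on every share of cells. In the APM library, cluster 10 held 112020 UMIs (unique molecular identifiers, each counted once per captured transcript), with a median of 2837 per cell and a range of 1896 to 4276. Cluster 7 held 1208858 UMIs with a median of 3634 (1671 to 9578), and the non-proliferating clusters held 9714018 with a median of 2577 (505 to 9385). In cluster 7, 98 cells (31.9%) were deeper than the deepest cell of cluster 10. Mitochondrial transcripts took a median of 2.78% of UMIs in cluster 10, 2.60% in cluster 7 and 2.63% in the non-proliferating clusters. The series has 42 cell barcodes that occur in more than 1 library, and 2 cluster 10 cells carry such a barcode. Levels below are CPM, the UMIs of a gene per 1000000 UMIs summed over a class, in the APM library unless the control library is named, and 1 UMI in cluster 10 equals 8.93 CPM.

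The cluster's markers were present in its cells. Ccnb2 had at least 1 UMI in 34 of 39 APM cluster 10 cells, 101 of 307 cluster 7 cells and 32 of 3369 non-proliferating cells (0.950%). Birc5 was detected in 25, 164 and 107 cells of the same classes, and Stmn1 in 35, 281 and 564. All 3 markers were detected together in 21 of 39 cluster 10 cells (53.8%, 37.2 to 69.9), 85 of 307 cluster 7 cells (27.7%, 22.8 to 33.1) and 3 of 3369 non-proliferating cells. Every cluster 10 cell of the APM and control libraries held at least 1 of the 3. These genes were used as markers of the cluster, so their presence in it is a description and no test of the label.

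Differences are given as log2 ratios of CPM after adding 10 CPM to both, which understates the ratio of low genes. A gene was tested for size only where its mean CPM over both classes reached 50, which in cluster 10 is about 5.60 UMIs. A gene counts as higher or lower at 2-fold or more. Of 2820 genes compared with cluster 7, 103 were higher (3.65%) and 168 lower (5.96%) in cluster 10, with a median log2 ratio of 0.09. Of 2684 genes compared with the non-proliferating clusters, 168 were higher (6.26%) and 108 lower (4.02%), with a median of 0.17. Setting those medians to 0 gave 80 higher and 201 lower against cluster 7, and 106 higher and 155 lower against the non-proliferating clusters. Both comparisons use the same cluster 10 cells.

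S phase transcripts were low in cluster 10. Of 22 S phase genes that passed the minimum, of 58 listed, 21 were at least 2-fold lower in cluster 10 than in cluster 7 and none was higher, where the background is 5.96% lower. Their median log2 ratio was -2.42, or -2.21 with the 5 tested genes at 0 UMIs set to 3 counts. These genes pass the minimum mainly through cluster 7, where they are high, so the counts of S phase genes called here and in the next paragraphs describe them and support nothing further. Summed over the 58 genes, S phase transcripts reached 982 CPM in cluster 10 (807 to 1184), 6555 CPM in cluster 7 (6411 to 6701) and 769 CPM in the non-proliferating clusters (751 to 786). Cluster 10 was thus near the non-proliferating level and far below cluster 7. The S phase lists reached 1029 CPM in cluster 10 of the control library (672 to 1507), 5976 CPM in its cluster 7 and 769 CPM in its non-proliferating clusters. The same order was therefore seen in a library of other mice, although the clusters were drawn over both libraries.

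The licensing genes load and fire the replicative helicase. All 7 that passed the minimum, of 18 listed, were at least 2-fold lower than in cluster 7 (background 5.96%). Mcm5 and Mcm2, helicase subunits, had 0 UMIs in cluster 10, against 133 and 104 CPM in cluster 7. At a limit of 3 counts, or 26.8 CPM, their levels were at least 4.97-fold and 3.89-fold lower. Mcm3, a further helicase subunit, had 17.9 CPM (2 UMIs) in cluster 10 and 196 CPM in cluster 7, a ratio of 0.0911 (0.0110 to 0.333).

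The same pattern held for the genes of DNA synthesis and nucleotide supply, of which 14 of 15 tested, from 40 listed, were at least 2-fold lower than in cluster 7 (background 5.96%). Rrm2, the cell-cycle-limited subunit of ribonucleotide reductase (chr12:24708241-24714146), had 0 UMIs in all 39 APM cells and in all 9 control cells of cluster 10. It had 366 UMIs (303 CPM) in APM cluster 7, so cluster 10 was at least 11.3-fold lower. Lig1, the ligase that joins Okazaki fragments, also had 0 UMIs, against 203 CPM, and was at least 7.60-fold lower. Hells, a chromatin remodeller of replicating cells, had 0 UMIs in cluster 10 and 117 CPM in cluster 7. Pcna, the sliding clamp of DNA polymerase, had 98.2 CPM in cluster 10 (49.0 to 176), 773 CPM in cluster 7 and 130 CPM in the non-proliferating clusters. Its ratio to cluster 7 was 0.127 (0.0632 to 0.228), and its interval in cluster 10 includes the non-proliferating level.

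An S phase gene well above the non-proliferating level was 2810417H13Rik, the Pcna-associated factor also called Pclaf. It had 179 CPM in cluster 10 (109 to 276), 871 CPM in cluster 7 and 8.44 CPM in the non-proliferating clusters. Hist1h2ap, a replication-dependent histone H2A gene on chr13:21833026-21833507, had 1 UMI in cluster 10 and 834 in cluster 7, or 8.93 CPM against 690 CPM. Histone H2A genes are near-identical copies, so its count is uncertain. Ccne2, the cyclin E of S phase entry, had 0 UMIs in cluster 10 and 158 CPM in cluster 7, at least 5.90-fold lower. Cdk4, a G1 kinase, had 62.5 CPM in cluster 10, 143 CPM in cluster 7 and 62.8 CPM in the non-proliferating clusters, and its log2 ratio to cluster 7 was -0.35 with thinned cells. The D-type cyclins did not follow this pattern. Ccnd3 had 179 CPM in cluster 10, 141 CPM in cluster 7 and 79.1 CPM in the non-proliferating clusters, and Ccnd2 had 214, 224 and 256 CPM in the same order of classes.

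**Figure D1:**
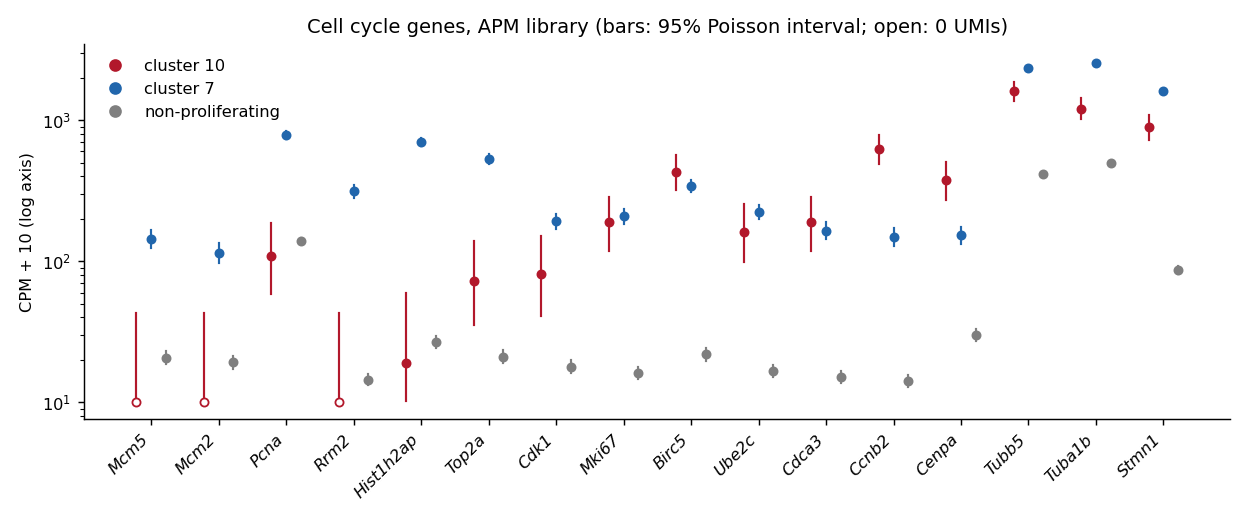
CPM plus 10 (log axis) of 16 cell cycle genes in cluster 10 (red), cluster 7 (blue) and the non-proliferating macrophage clusters (grey) of the APM library, with 95% Poisson intervals and open circles at 0 UMIs. Mcm5, Mcm2, Rrm2, Hist1h2ap and Pcna of cluster 10 lie at or near the grey points, while Ccnb2 (616 CPM) and Cenpa (366 CPM) lie above the blue ones.

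Mitotic transcripts, in contrast, were far above the non-proliferating level in cluster 10. Summed over the 89 genes of the mitotic lists, they reached 6392 CPM in cluster 10 (5932 to 6878), 9699 CPM in cluster 7 (9524 to 9876) and 1074 CPM in the non-proliferating clusters. The mitotic lists of the control library reached 5856 CPM in cluster 10 (4950 to 6879), 8455 CPM in cluster 7 and 1209 CPM in the non-proliferating clusters. Of 14 mitotic genes tested against the non-proliferating clusters, 11 were at least 2-fold higher and none lower, with a median log2 ratio of 2.36, where the background is 6.26% higher. Genes pass that minimum mainly through cluster 10 itself, so this count describes them and supports nothing further. Against cluster 7, of 41 genes tested 2 were at least 2-fold higher and 16 lower, with a median of -0.56, where the background is 3.65% higher and 5.96% lower. The 2 higher genes were Ccnb2 and Cenpa. Only 14 mitotic genes passed the minimum against the non-proliferating clusters, so many of the 41 pass it through cluster 7, where they are high. The count and median against cluster 7 therefore describe them and support nothing further.

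Ccnb2 had 69 UMIs in the 39 APM cells, or 616 CPM (479 to 780). Its level was 139 CPM in cluster 7 and 4.12 CPM in the non-proliferating clusters. Cluster 10 was thus 4.43-fold higher than cluster 7 (3.30 to 5.90) and 149.6-fold higher than the non-proliferating clusters (99.9 to 227). Among control cells Ccnb2 had 396 CPM in cluster 10 (10 UMIs), 116 CPM in cluster 7 and 3.64 CPM in the non-proliferating clusters. The single HDM and HDM+APM cells held 2 UMIs and 1 UMI of Ccnb2. Cells of cluster 10 held from 0 to 5 UMIs of this gene, with a median of 2.

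Birc5 had 419.6 CPM in cluster 10 (308 to 558), 333 CPM in cluster 7 and 11.8 CPM in the non-proliferating clusters. Its ratio to cluster 7 was 1.26 with an interval of 0.910 to 1.71, which includes 1, so no difference was detectable at this depth. Stmn1 had 884 CPM in cluster 10 (718 to 1076), 1589 CPM in cluster 7 and 76.5 CPM in the non-proliferating clusters, and its ratio to cluster 7 was 0.556 (0.450 to 0.681). The 3 markers thus divide: Ccnb2 was higher than in cluster 7, Birc5 close to it and Stmn1 lower.

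Within the mitotic cyclins, kinases and APC/C genes, 5 of 6 tested, from 22 listed, were at least 2-fold higher than in the non-proliferating clusters (background 6.26%), again passing the minimum mainly through cluster 10. Ube2c, the ubiquitin carrier of the anaphase-promoting complex, had 152 CPM in cluster 10, 214 CPM in cluster 7 and 6.69 CPM in the non-proliferating clusters. Cks2, a small subunit of cyclin-dependent kinases, had 428 CPM in cluster 10 (316 to 568), 290 CPM in cluster 7 and 104 CPM in the non-proliferating clusters. Cdk1, the mitotic kinase itself, had 71.4 CPM in cluster 10 and 182 CPM in cluster 7, a ratio of 0.392 (0.167 to 0.787), against 7.82 CPM in the non-proliferating clusters. With cells thinned to 1000 UMIs, the log2 ratio of Cdk1 to cluster 7 was -0.48, under 2-fold. Other mitotic regulators were too shallow to place. Ccnb1, a second B-type cyclin, had 7 UMIs in cluster 10 and 62.5 CPM, against 59.6 CPM in cluster 7. Plk1, polo kinase, had 1 UMI and Cdc20, an activator of the anaphase-promoting complex, had 4 UMIs.

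Centromere, passenger and spindle genes were split in the same way. Cenpa, the centromeric histone H3 variant (chr5:30666777-30674830), had 366 CPM in cluster 10 (263 to 497), 142 CPM in cluster 7 and 19.9 CPM in the non-proliferating clusters. It was 2.57-fold higher than in cluster 7 (1.78 to 3.63) and was detected in 26 of 39 cluster 10 cells, against 85 of 307 cluster 7 cells. Against the cluster 7 cells with more mitotic than S phase UMIs its log2 ratio was 0.63 and no longer past 2-fold. Cenpa is itself among the mitotic genes that picked those cells, so this drop is partly set by the choice. In contrast Hjurp, the chaperone that deposits Cenpa, had 17.9 CPM (2 UMIs) in cluster 10 and 94.3 CPM in cluster 7. Incenp, the scaffold of the passenger complex, had 26.8 CPM in cluster 10 and 116 CPM in cluster 7. Racgap1, a regulator of cytokinesis, had 107 CPM in cluster 10, 124 CPM in cluster 7 and 7.10 CPM in the non-proliferating clusters. Cdca3, a trigger of mitotic entry that none of the lists holds, had 179 CPM in cluster 10, 155 CPM in cluster 7 and 5.04 CPM in the non-proliferating clusters.

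The condensin and chromosome structure genes were the mitotic group with the largest gap to cluster 7. Of 8 tested, 6 were at least 2-fold lower in cluster 10 (background 5.96% lower). Several of them pass the minimum mainly through cluster 7, where they are high, so this count describes them and supports nothing further. Top2a, the topoisomerase that untangles sister chromosomes, had 62.5 CPM in cluster 10 (25.1 to 129), 519 CPM in cluster 7 and 11.0 CPM in the non-proliferating clusters. It was detected in 5 of 39 cluster 10 cells and in 206 of 307 cluster 7 cells. Ncapd2, a condensin subunit, had 17.9 CPM in cluster 10 and 122 CPM in cluster 7, and Nusap1, a spindle protein of chromosomes, had 35.7 and 199 CPM. Mki67, the Ki-67 coat of mitotic chromosomes, belongs to the same list and did not follow. Its level was 179 CPM in cluster 10 (109 to 276), 199 CPM in cluster 7 and 6.07 CPM in the non-proliferating clusters.

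Tubulins and chromatin proteins were mixed. Of 10 histone and high mobility group genes tested against cluster 7, 1 was at least 2-fold higher and 3 were lower (background 3.65% and 5.96%). Of 9 tested against the non-proliferating clusters 7 were higher and 1 was lower (background 6.26% and 4.02%). A gene can pass the minimum through the class where it is high, so these counts describe the genes and support nothing further. Tuba1b, an alpha tubulin, had 1196 CPM in cluster 10, 2520 CPM in cluster 7 and 489 CPM in the non-proliferating clusters. In the 9 control cells of cluster 10 it had only 7 UMIs, or 277 CPM, so its place above the non-proliferating level was not seen there. Tubb5, a beta tubulin, had 1589 CPM in cluster 10, 2312 CPM in cluster 7 and 403 CPM in the non-proliferating clusters. The replication-independent histone H2afz had 3821 CPM in cluster 10 (3467 to 4200), 3378 CPM in cluster 7 and 1092 CPM in the non-proliferating clusters. H2afv, its close paralogue, had 687, 693 and 101 CPM in the same order of classes. Hmgb2, a DNA-bending chromatin protein, had 491 CPM in cluster 10, 1146 CPM in cluster 7 and 114 CPM in the non-proliferating clusters. Lockd, a long noncoding RNA encoded beside the cell cycle inhibitor Cdkn1b, had 295 CPM in cluster 10, 157 CPM in cluster 7 and 7.62 CPM in the non-proliferating clusters.

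Counting both programmes within single cells gave the same division. Each APM cell was thinned to 1000 UMIs, which left out no cluster 10 or cluster 7 cell and 76 non-proliferating cells. Cluster 10 cells then held a median of 1 S phase UMI (0 to 4) and 6 mitotic UMIs (1 to 21), with mitotic quartiles of 4 and 8. Cluster 7 cells held medians of 6 S phase UMIs (0 to 19) and 9 mitotic UMIs (0 to 34), and non-proliferating cells held medians of 1 and 1. Mitotic UMIs outnumbered S phase UMIs in 38 of 39 cluster 10 cells (97.4%, 86.5 to 99.9), 156 of 307 cluster 7 cells (50.8%, 45.1 to 56.5) and 1382 of 3293 non-proliferating cells (42.0%). S phase UMIs outnumbered mitotic ones in 0 of 39 cluster 10 cells (exact interval 0 to 9.03%), where 3 cells would be a share of 7.69%. They did so in 127 cluster 7 cells (41.4%) and in 25.9% of non-proliferating cells.

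At least 1 S phase UMI was left in 26 of 39 cluster 10 cells (66.7%, 49.8 to 80.9), 302 of 307 cluster 7 cells (98.4%) and 50.5% of the non-proliferating cells. A single such UMI was thus also common outside the proliferating clusters, while high mitotic counts were not. At or above the cluster 10 median of 6 mitotic UMIs lay 22 of 39 cluster 10 cells (56.4%), 193 of 307 cluster 7 cells (62.9%) and 18 of 3293 non-proliferating cells (0.547%). Among control cells, 8 of 9 cluster 10 cells and 116 of 241 cluster 7 cells (48.1%) held more mitotic than S phase UMIs. A further comparison used only the 156 cluster 7 cells whose mitotic UMIs outnumbered their S phase UMIs, a subset chosen after seeing the data. Cluster 10 then had a median S phase log2 ratio of -2.22 and a mitotic median of -1.14. The subset was picked on UMIs of the same S phase and mitotic lists, so both medians are partly set by that choice.

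**Figure D2:**
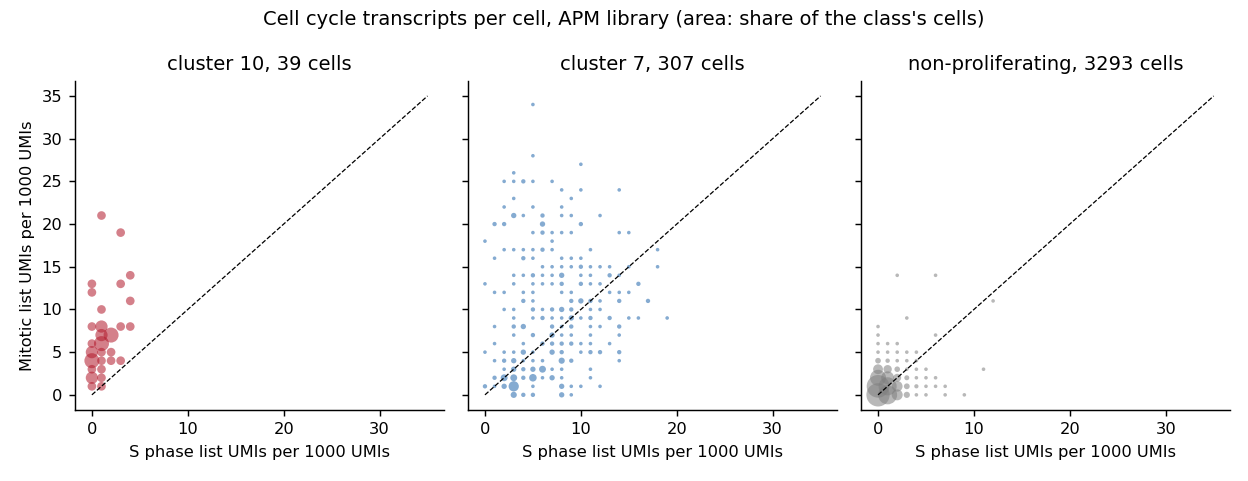
Mitotic list UMIs (vertical) against S phase list UMIs (horizontal) per cell after thinning to 1000 UMIs in the APM library, with point area showing the share of a class's cells and a dashed line of equality. The 39 cluster 10 cells lie at 0 to 4 S phase UMIs with none below the line, while cluster 7 cells spread to 19 S phase UMIs on both sides of it and the 3293 non-proliferating cells gather at the origin.

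Genes of the alveolar macrophage lineage had levels near those of cluster 7. All 23 genes of the alveolar macrophage list were detected and tested. Against cluster 7, none was at least 2-fold higher and 3 were lower (background 5.96% lower), with a median log2 ratio of 0.00. Against the non-proliferating clusters, 0 were higher and 4 lower (background 4.02% lower), with a median of -0.24. Chil3, a chitinase-like secreted protein, had 8695 CPM in cluster 10 (8157 to 9259), 6628 CPM in cluster 7 and 6948 CPM in the non-proliferating clusters, and was detected in all 39 cells. Ear2, an eosinophil-associated ribonuclease that alveolar macrophages make, had 839 CPM in cluster 10, 929 CPM in cluster 7 and 1183 CPM in the non-proliferating clusters, and closely related copies of this gene family make its count uncertain. Pparg, the nuclear receptor that maintains alveolar macrophages, had 89.3 CPM in cluster 10 (42.8 to 164), 53.8 CPM in cluster 7 and 47.6 CPM in the non-proliferating clusters. Csf2rb, a receptor chain for the growth factor GM-CSF, had 232, 177 and 209.5 CPM in the same order of classes.

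The lineage genes lower than in cluster 7 were Itgax, Car4 and Fabp5. Itgax, the integrin chain CD11c, had 107 CPM in cluster 10 (55.4 to 187) and 339 CPM in cluster 7, a ratio of 0.316 (0.162 to 0.558), and 358 CPM in the non-proliferating clusters. Itgax had 356 CPM in control cluster 10 (163 to 676) and 394 CPM in control cluster 7, so the gap was not seen there. Car4, a carbonic anhydrase, had 161 CPM in cluster 10 and 376 CPM in cluster 7. Fabp5, a fatty acid carrier, had 482 CPM in cluster 10 (362 to 629), 1061 CPM in cluster 7 and 1815 CPM in the non-proliferating clusters. Among control cells Fabp5 had 949.6, 1499 and 3076 CPM in that order. Some of these calls depended on the cells compared. Against the cluster 7 cells with more mitotic than S phase UMIs the log2 ratios of Car4 and Fabp5 were -0.88 and -0.82, under 2-fold, and that of Fabp5 was -0.84 without the deepest 10% of cells. Lpl, lipoprotein lipase, had 696 CPM in cluster 10, 1380 CPM in cluster 7 and 1695 CPM in the non-proliferating clusters.

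Several marker lists of other cells were at 0 in cluster 10. No UMI of the B cell (10 genes), NK cell (6), dendritic cell (10), cavity macrophage (10) or eosinophil, basophil and mast cell (4) lists was present in its 39 APM cells. These lists were also low elsewhere, at 0 to 20.7 CPM in cluster 7 and 0.721 to 16.8 CPM in the non-proliferating clusters. At this depth 0 UMIs in cluster 10 has an upper limit of 32.9 CPM, so these zeros do not set the cluster apart. Of 10 T cell genes, 9 were at 0, among them Cd3e. The tenth, Cd2, had 187 CPM in cluster 10, 147 CPM in cluster 7 and 159 CPM in the non-proliferating clusters. Of 14 monocyte genes 10 were at 0, among them Ly6c2 and F13a1, and Ccr2 had 1 UMI. The monocyte list summed to 286 CPM in cluster 10 (32 UMIs, 195 to 403), 284 CPM in cluster 7 and 214 CPM in the non-proliferating clusters. Of its 2 tested members, 1 was at least 2-fold higher than in either class, Spn, the sialophorin CD43. Spn had 89.3 CPM in cluster 10 (10 UMIs), 34.7 CPM in cluster 7 and 13.8 CPM in the non-proliferating clusters. It had 1 UMI in the control cells of cluster 10. With cells thinned to 1000 UMIs, Spn was no higher than in cluster 7, at a log2 ratio of -0.14. Csf1r, the receptor for the growth factor M-CSF, had 35.7 CPM (4 UMIs) against 60.4 CPM in cluster 7 and 82.9 CPM in the non-proliferating clusters. The list of monocyte-derived and interstitial macrophage genes summed to 1696 CPM in cluster 10 (1464 to 1955), 1357 CPM in cluster 7 and 2085 CPM in the non-proliferating clusters, with 8 of 20 genes at 0 in cluster 10. The neutrophil list summed to 80.3 CPM in cluster 10 (9 UMIs), 83.5 CPM in cluster 7 and 109 CPM in the non-proliferating clusters. Transcripts of airway epithelium and of red blood cells were present in all 3 classes, and their part in the results was not tested. The epithelial list summed to 1535 CPM in cluster 10, 2104 CPM in cluster 7 and 1949 CPM in the non-proliferating clusters, and the red blood cell list to 4419, 4038 and 6340 CPM.

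Across 2651 genes outside the cell cycle lists, with each cluster thinned to 109772 UMIs, the profile of cluster 10 was most like Macrophage 4 (Pearson r = 0.884). Next came cluster 7 (r = 0.881), Macrophage 5 (r = 0.871) and Macrophage 6 (r = 0.870), and Macrophage 9 was the least like (r = 0.745). These are correlations across genes, which are not independent replicates, and the clusters share a library. Cluster 7 was also most like Macrophage 4 (r = 0.894). Over all 4 libraries Macrophage 4 again came first for cluster 10 (r = 0.904), closely followed by cluster 7 (r = 0.895). Cluster 7, however, was then most like Macrophage 5 (r = 0.915), ahead of Macrophage 4 (r = 0.9045).

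**Figure D3:**
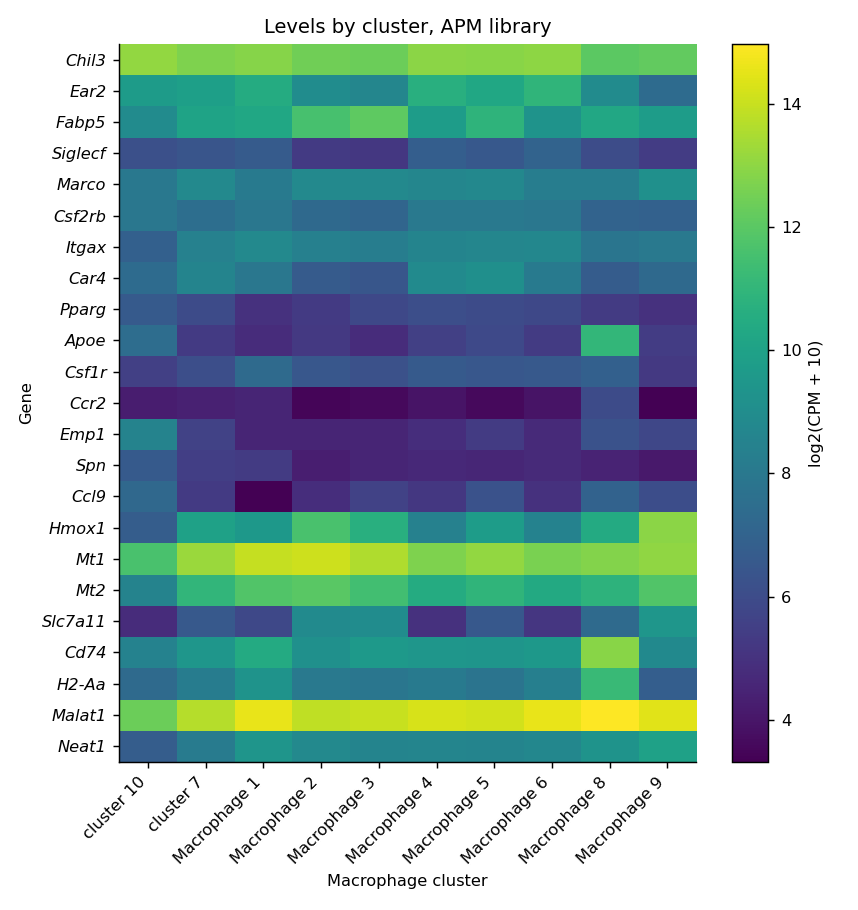
Level, as log2(CPM + 10), of 23 lineage and programme genes (rows) in cluster 10, cluster 7 and the 8 non-proliferating macrophage clusters (columns) of the APM library. Chil3 is high in every column, Emp1 is brightest in cluster 10 (357 CPM), Hmox1 and Mt2 are darkest there, and Apoe and Cd74 are brightest in Macrophage 8.

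Outside the cell cycle, the gene with the highest ratio to cluster 7 was Emp1, a small membrane protein of epithelial cells (chr6:135362545-135383173). Emp1 had 357 CPM in cluster 10 (255 to 486), 38.9 CPM in cluster 7 and 21.7 CPM in the non-proliferating clusters. It was 9.18-fold higher than in cluster 7 (5.87 to 14.3) and 16.4-fold higher than in the non-proliferating clusters (11.4 to 23.1). At least 1 UMI was present in 25 of 39 cluster 10 cells (64.1%), 34 of 307 cluster 7 cells (11.1%) and 177 of 3369 non-proliferating cells (5.25%), and no cluster 10 cell held more than 3. After thinning to 1000 UMIs these shares were 38.5%, 1.63% and 2.00%. In the control library Emp1 had 317 CPM in cluster 10 (8 UMIs), 32.0 CPM in cluster 7 and 11.9 CPM in the non-proliferating clusters. Among the macrophage clusters of the APM library the next highest level was 65.4 CPM, in Macrophage 8, and in the APM epithelial cluster Emp1 had 13.1 CPM.

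Ifi27l2a, an interferon-inducible gene, had 428 CPM in cluster 10 (316 to 568), 67.8 CPM in cluster 7 and 58.9 CPM in the non-proliferating clusters. It was detected in 18 of 39 cluster 10 cells, and 237 CPM (6 UMIs) were found in the control cells of cluster 10, against 86.5 CPM in control cluster 7. The interferon response list, which does not hold Ifi27l2a, summed to 187 CPM in cluster 10 (116 to 287), 271 CPM in cluster 7 and 291 CPM in the non-proliferating clusters. Apoe, a lipid carrier, had 169.6 CPM in cluster 10, 29.0 CPM in cluster 7 and 103 CPM in the non-proliferating clusters. Its UMIs came from 6 of 39 cells, and 1 of those cells held 10 of the 19. Ccl9, a macrophage chemokine, had 143 CPM (16 UMIs) in cluster 10, 29.0 CPM in cluster 7 and 38.0 CPM in the non-proliferating clusters, and no UMI in the control cells of cluster 10. The other genes among the 10 highest against cluster 7 were Gm13546, Dpm1, Rnpc3, Fam102b and Fnta, each with 10 to 14 UMIs in cluster 10. Of those 10 genes, 6 were also higher than in cluster 7 in the control library and 4 had 0 UMIs in its 9 cells.

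Some genes of the oxidative and metal response, Hmox1, Mt1 and Mt2 among them, were lower in cluster 10 than in either other class. Hmox1, the haem-degrading enzyme induced by Nrf2 (chr8:75093621-75100589), had 98.2 CPM in cluster 10 (49.0 to 176), 1017 CPM in cluster 7 and 1345 CPM in the non-proliferating clusters. Its ratio was 0.0966 to cluster 7 (0.0481 to 0.173) and 0.0730 to the non-proliferating clusters (0.0364 to 0.131). It was detected in 8 of 39 cluster 10 cells, 211 of 307 cluster 7 cells and 2050 of 3369 non-proliferating cells. Hmox1 of the control library had 277 CPM in cluster 10, 1884 CPM in cluster 7 and 2254 CPM in the non-proliferating clusters. The non-proliferating clusters themselves spanned 343 CPM in Macrophage 4 to 7833 CPM in Macrophage 9, so cluster 10 lay below each of them.

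Metallothioneins bind zinc and copper and are induced by metals. Mt2 had 366 CPM in cluster 10 (263 to 497), 2042 CPM in cluster 7 and 2258 CPM in the non-proliferating clusters, with ratios of 0.179 (0.128 to 0.244) and 0.162 (0.116 to 0.220). Mt1 had 3107 CPM in cluster 10, 9463 CPM in cluster 7 and 9834 CPM in the non-proliferating clusters. Per cell the classes overlapped. The median Mt1 rate per 1000 UMIs of the cell was 2.14 in cluster 10 (0.289 to 20.5), 5.78 in cluster 7 and 3.94 in non-proliferating cells, and 33.3% of non-proliferating cells were at or below the cluster 10 median. In the control library the median Mt1 rates were 4.02, 9.90 and 10.7 in that order. Of 18 Nrf2 genes tested, 3 were at least 2-fold lower than in cluster 7 (median log2 ratio -0.48, background 5.96%). Of 17 tested against the non-proliferating clusters, 9 were lower (median -1.01, background 4.02%), among them Slc7a11, the cystine importer, with 17.9 CPM in cluster 10 and 186 CPM in the non-proliferating clusters. Slc7a11 was also low in Macrophage 4, at 21.6 CPM, and in Macrophage 6, at 26.0 CPM. Genes such as Slc7a11 pass the minimum through the class where they are high, so both Nrf2 counts describe them and support nothing further.

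Some genes of MHC class II presentation and of lipid handling were also lower. Of 6 MHC class II genes tested, 1 was at least 2-fold lower than in cluster 7 and 3 were lower than in the non-proliferating clusters (background 5.96% and 4.02%), with medians of -0.82 and -1.02. The gene lower than in cluster 7 was H2-Eb1, at -0.77 with thinned cells and -0.92 without the deepest 10% of cells. H2-Aa against the non-proliferating clusters was -0.71 with thinned cells. In the control library the list summed to 1345 CPM in cluster 10 (932 to 1880) and 1592 CPM in cluster 7. Cd74, the invariant chain, had 348 CPM in cluster 10 (248 to 476), 694 CPM in cluster 7 and 912 CPM in the non-proliferating clusters. Cd74 had 554 CPM (14 UMIs) in control cluster 10 and 636 CPM in control cluster 7. MHC class I genes had medians of 0.11 and -0.06 with none past 2-fold. Of 15 lipid uptake, storage and cholesterol genes tested against the non-proliferating clusters, 5 were lower (median -0.60, background 4.02%). Against cluster 7, 2 of 12 tested were lower (background 5.96%), with a median of -0.06. Soat1, which esterifies cholesterol, had 80.3 CPM in cluster 10, 228 CPM in cluster 7 and 277 CPM in the non-proliferating clusters. Msmo1, a cholesterol synthesis enzyme, and Insig1, a sterol sensor partner, had 17.9 CPM (2 UMIs) each in cluster 10, against 129 and 119 CPM in the non-proliferating clusters. A gene can pass the minimum through the class where it is high. The MHC class II and lipid counts therefore describe the genes and support nothing further.

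**Figure D4:**
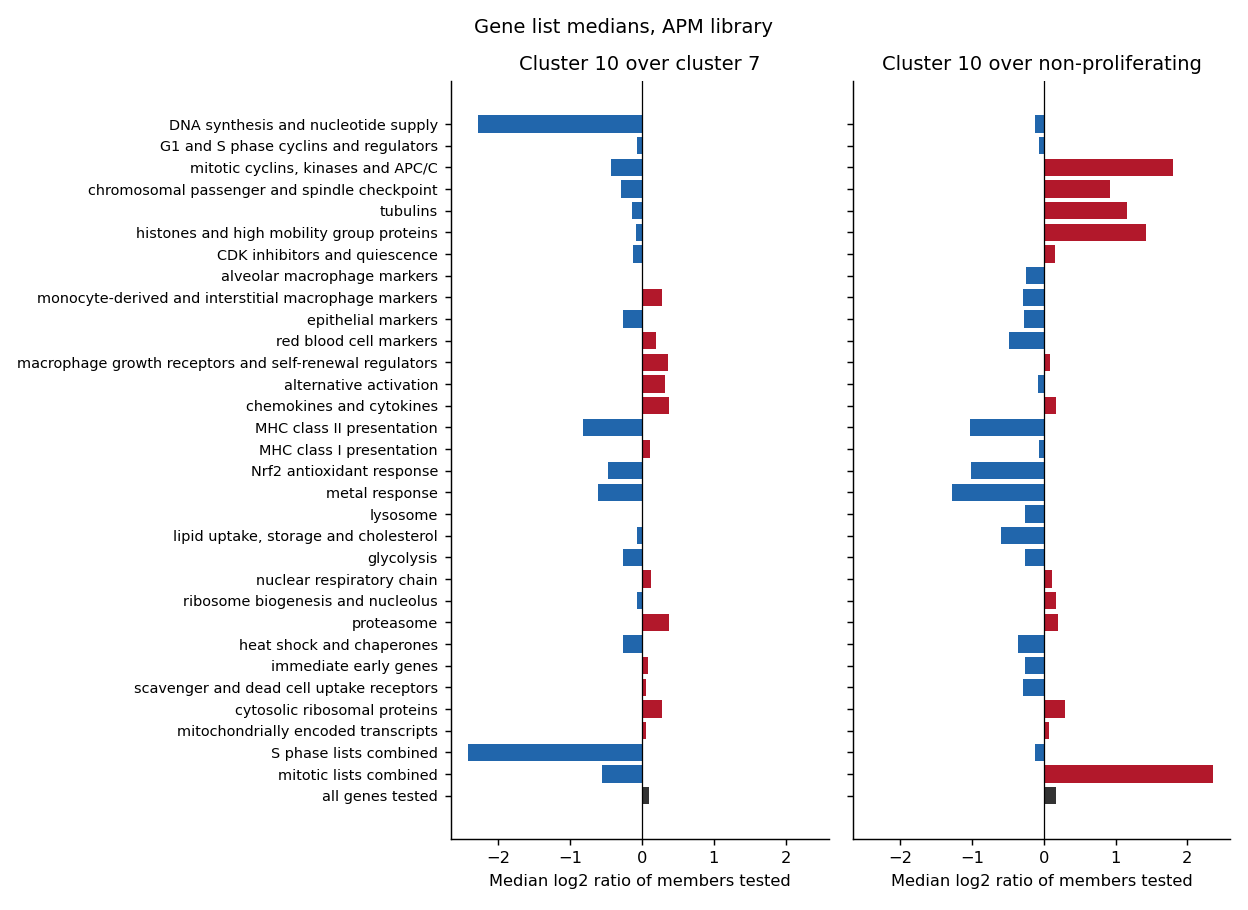
Median log2 ratio of the tested members of each gene list with at least 3 such members in both comparisons, for cluster 10 over cluster 7 (left) and over the non-proliferating macrophage clusters (right) in the APM library. The longest bars are the S phase lists on the left (-2.42) and the mitotic lists on the right (2.36), and the black bars show all genes tested (0.09 and 0.17).

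Malat1 was lower in cluster 10 than in every other macrophage cluster of the APM library. This long noncoding RNA of nuclear speckles (chr19:5795690-5802672) was chosen after its values were seen. It had 5178 CPM in cluster 10 (4765 to 5617), 12864 CPM in cluster 7 and 19369 CPM in the non-proliferating clusters, with ratios of 0.402 (0.370 to 0.437) and 0.267 (0.246 to 0.290). Per 1000 UMIs of the cell, Malat1 had a median of 3.29 in cluster 10 (quartiles 2.54 and 4.83), 11.3 in cluster 7 (7.58 and 15.9) and 16.1 in non-proliferating cells (10.2 and 25.4). Only 7 of 307 cluster 7 cells (2.28%) and 110 of 3369 non-proliferating cells (3.27%) were at or below the cluster 10 median. A single cluster 10 cell stood apart at 59.4 per 1000. In the control library the medians of Malat1 were 4.88 in cluster 10, 9.00 in cluster 7 and 13.6 in non-proliferating cells, and the highest of its 9 cluster 10 cells had 9.55.

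Neat1, the RNA scaffold of nuclear paraspeckles (chr19:5824708-5845478), was among the 10 lowest genes against the non-proliferating clusters. It had 98.2 CPM in cluster 10 (49.0 to 176), 278 CPM in cluster 7 and 426 CPM in the non-proliferating clusters. Among control cells Neat1 had 1 UMI in cluster 10, or 39.6 CPM, against 391 CPM in cluster 7 and 512 CPM in the non-proliferating clusters. Kcnq1ot1, a further nuclear RNA chosen after its values were seen, had 35.7 CPM (4 UMIs) in cluster 10, 103 CPM in cluster 7 and 136 CPM in the non-proliferating clusters. Whether these RNAs and the mitotic transcripts vary together from cell to cell was not tested.

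**Figure D5:**
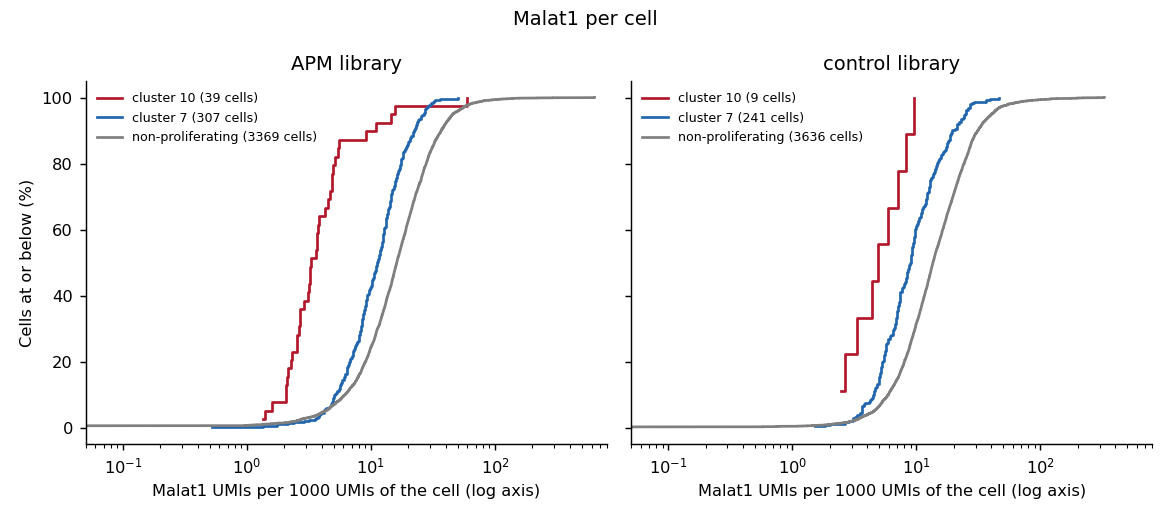
Cumulative share of cells (vertical, percent) by Malat1 UMIs per 1000 UMIs of the cell (horizontal, log axis) in cluster 10, cluster 7 and the non-proliferating clusters, for the APM library (left) and the control library (right), with cells at 0 drawn at the left edge. The cluster 10 curve lies left of both others at the median and both quartiles in each library, with medians of 3.29 (APM) and 4.88 (control). At the low end both other curves start further left than the lowest cluster 10 cells (1.35 and 2.47), and a single APM cluster 10 cell lies at 59.4.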

How the data were processed

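Per the labels' protocols, 10x Genomics 3' v2 chemistry was used, with 1 library per group. Cell Ranger 2.2.0, Seurat 2.3.4 and the mm10 build appear, without their roles, per the submitters' processing notes. The authors deposited UMI counts, not normalized, for 13838 genes and 9925 cells, with a cell table of libraries, coarse types and refined clusters. Deposited cells held 496 to 9998 UMIs, and all were kept. No doublets were called here, and any earlier doublet removal is not stated in the labels or headers. No sample column was left unused (0).

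Counts were summed per class and library and scaled to CPM with Python 3.11.15, numpy 2.4.6, scipy 1.17.1 and pandas 2.3.3, and figures were drawn with matplotlib 3.10.9. CPM have exact Poisson, shares exact Clopper-Pearson and ratios exact conditional binomial 95% intervals. PCR duplicates are collapsed by UMI, but cells of a pool are not independent animals, so the intervals do not cover variation between mice. For log2 ratios, 10 CPM was added to each level, a mean of 50 CPM was required and the threshold was 2-fold. A gene at 0 UMIs was bounded at 3 counts over the class. Cells were thinned once to 1000 UMIs without replacement. The comparison code was tested on simulated counts.

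Named genes are the 10 highest and 10 lowest log2 ratios per comparison, the 3 members of each of 41 gene lists with the largest absolute ratio, and the 3 markers. Others, such as Malat1, Kcnq1ot1, Ccnb1, Plk1, Cdc20, Csf2rb, Ly6c2, F13a1, Ccr2 and Cd3e, were chosen after their values were seen. The members and lists were chosen with earlier results of these data known. Alternatives are given in the closing section.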

Additional observations from a re-analysis of the deposited data

How the results depend on the processing

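No paired analysis was possible because each group is 1 pooled library. The number of genes past 2-fold depended on the settings for low genes, since 50 CPM is about 5.60 UMIs in cluster 10. Against cluster 7 the higher and lower genes numbered 26 and 81 with a pseudocount of 50 CPM, 262 and 490 with a minimum of 20 CPM, 391 and 1245 with no minimum, and 340 and 299 with cells thinned to 1000 UMIs, against 103 and 168 as reported. Against the non-proliferating clusters they numbered 56 and 51, 339 and 263, 506 and 903, and 424 and 199 under those settings, against 168 and 108. Setting the median log2 ratio to 0 left 106 higher genes there. The mitotic median against the non-proliferating clusters was 1.55 with the pseudocount of 50 CPM and 1.35 with no minimum. The cause of these shifts was not tested beyond the number of genes compared.

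The S phase median against cluster 7 lay between -2.48 and -1.63 and the mitotic median against the non-proliferating clusters between 1.35 and 2.73 under all alternatives run. Those alternatives also included all 4 libraries pooled, a mean over cells, leaving out the deepest 10% of cells or cells of another coarse type, equal weights for the non-proliferating clusters and, chosen after seeing the data, the mitotic subset of cluster 7. The log2 ratio of Ccnb2 to cluster 7 ranged from 1.43 to 2.22, that of Hmox1 from -3.65 to -2.85, and that of Emp1 to the non-proliferating clusters from 2.50 to 4.02. Against the mitotic subset of cluster 7, Cenpa (0.63), Car4 (-0.88) and Fabp5 (-0.82) were under 2-fold. That subset was picked on the S phase and mitotic lists, and Cenpa is a member of the latter, so its drop is partly set by the choice. Fabp5 was also under it (-0.84) without the deepest 10% of cells. Nop56 and Slc7a11 (-0.99 each) and Kcnq1ot1 (-0.83) were under it with the pseudocount of 50 CPM. With all libraries pooled Fbl (-0.71) was under it against cluster 7, and Ccl9 (0.80) and Hsp90aa1 (-0.77) against the non-proliferating clusters. Spn against cluster 7 turned to -0.14 with thinned cells. Kept to cells of at least 1000 UMIs, the cluster 10 share was 1.07% of APM and 0.234% of control macrophages. With cells thinned to 1500 UMIs, mitotic UMIs outnumbered S phase UMIs in 97.4% of cluster 10 and 51.8% of cluster 7 cells of the APM library. S phase UMIs then outnumbered mitotic ones in 1 of 39 APM cluster 10 cells, where thinning to 1000 UMIs gave 0. The 9 control cells hold 25274 UMIs, so a gene at 0 there may still reach 119 CPM.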

Other observations

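The tested ribosomal protein, proteasome and respiratory chain genes were all within 2-fold between cluster 10 and either other class. Ribosomal protein transcripts still summed higher in cluster 10, to 183557 CPM (181056 to 186083), against 156396 CPM in cluster 7 and 154647 CPM in the non-proliferating clusters. In the control library they summed to 184379, 145180 and 140199 CPM in that order. Cytosolic ribosomal protein genes had median log2 ratios of 0.27 against cluster 7 and 0.29 against the non-proliferating clusters, with none of the 76 and 77 tested past 2-fold, and took a median of 19.0% of UMIs per cell in cluster 10, 15.4% in cluster 7 and 15.2% in the non-proliferating clusters. Proteasome genes had medians of 0.37 and 0.19, and nuclear respiratory chain genes 0.13 and 0.12, again with none past 2-fold. Psma6, a proteasome core subunit, had 330.3 CPM in cluster 10 (233 to 455), 163 CPM in cluster 7 and 166 CPM in the non-proliferating clusters. In the control cells of cluster 10 Psma6 had 1 UMI. Chaperones were lower for some members, such as Hsp90aa1, a cytosolic chaperone, with 196 CPM in cluster 10 (123 to 297), 609 CPM in cluster 7 and 461 CPM in the non-proliferating clusters. Among control cells Hsp90aa1 had 514 CPM in cluster 10, 622 CPM in cluster 7 and 406 CPM in the non-proliferating clusters, so that gap was not seen there. Nop56 and Fbl, proteins of the nucleolar machinery that modifies ribosomal RNA, had 2 and 3 UMIs in APM cluster 10, or 17.9 and 26.8 CPM, against 84.4 and 80.2 CPM in cluster 7.

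The cluster 10 cells of the 2 larger libraries differed in some genes. Mt2 had 366 CPM in APM cluster 10 (263 to 497) and 1701 CPM in control cluster 10 (1231 to 2292), while cluster 7 had 2042 CPM of Mt2 in the APM library and 4145 CPM in the control library. The single cluster 10 cells of the allergen libraries held 141 (HDM) and 157 (HDM+APM) UMIs of Chil3, against at most 77 in any APM cell of the cluster. Haemoglobin transcripts differed between the libraries in both clusters. Hbb-bs had 2071 CPM in cluster 10 and 2158 CPM in cluster 7 of the APM library, and 119 CPM and 114 CPM in those of the control library.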
